A study of Mus musculus with 2 samples.

Results

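The 8 genes described here, Siglech, Ccr9, Tcf4, Klk1, Cox6a2, Irf8, Ly6d and Lefty1, are genes known to mark plasmacytoid dendritic cells (pDCs) of the mouse. They were chosen by symbol, not by a threshold on their values, and all 8 were found among the 27998 genes of the count matrices. RNA was counted in single CD45+ leukocytes sorted from B16 melanomas, in droplets, as UMIs (unique molecular identifiers, by which copies of one captured molecule are counted 1 time). Each of 2 genotypes gave 1 library, made from female C57BL/6 mice 5 weeks old, with tumours taken on day 14 and 2600 cells loaded. The control genotype was Foxp3Cre-YFP, in which Cre recombinase and a yellow fluorescent protein are driven by Foxp3, the gene of the transcription factor of regulatory T cells. The other genotype was Nrp1L/LFoxp3Cre-YFP, called Nrp1L/L here, which also carried floxed Nrp1, the gene of the receptor neuropilin-1, so that both groups shared the Cre allele. The labels did not say how many mice went into a library. With 1 library per genotype there was no replicate and no test between genotypes. All intervals are 95% intervals and cover counting error only.

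Plasmacytoid dendritic cells are round, plasma cell-like cells that sense viral RNA and DNA in endosomes through Toll-like receptors (TLRs) and can secrete large amounts of type I interferon. Their identity depends on the E protein TCF4, which binds E-box DNA motifs and is opposed by ID2, together with IRF8, which other dendritic cells, monocytes and B cells also use. In tumours pDCs are a small population, and they have been described both as sources of interferon and as tolerance-promoting cells.

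All 8 are protein-coding genes. On GRCm38, 7 of them lie at chr7:55768178-55778925 (Siglech), chr9:123678439-123784330 (Ccr9), chr7:44225360-44229618 (Klk1), chr7:128205435-128206387 (Cox6a2), chr8:120736358-120756694 (Irf8), chr15:74762056-74763620 (Ly6d) and chr1:180935022-180938400 (Lefty1). UMIs were counted per gene, so the values do not separate exons or transcript variants. Of 2611 barcodes, 2577 cells were kept after likely doublets were left out. The control library had 1302 kept cells with a median of 8056.5 UMIs (3414 to 84144), and the Nrp1L/L library had 1275 with a median of 5332 UMIs (2659 to 42414), so it was shallower. The libraries shared 3 cell barcodes. Foxp3 was detected in only 3 T cells of each library, of which 0 and 1 held a UMI of Nrp1, so the deletion could not be checked, and whether the counted end of the transcript lies in the deleted part is not given in the sources used here.

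Promoters could be shown for 4 of the 8 genes, Siglech, Ccr9, Klk1 and Irf8, from the RefSeq table for GRCm38.p6, each from 250 bases before to 50 bases after a gene start. They are shown because TCF4 binds E-boxes, and because the first 3 genes were found together in the same few cells while Irf8 was found in most leukocytes. Capitals mark E-boxes, CANNTG, a pattern that is the same on both strands. The Siglech promoter (chr7:55767934-55768233, plus strand) held 3 E-boxes, the Ccr9 promoter (chr9:123766961-123767260, plus strand) held 2, and the Klk1 promoter (chr7:44225110-44225409, plus strand) held 3. The promoter at the first listed start of Irf8 (chr8:120736108-120736407, plus strand) held 0, and that at its second start (chr8:120738389-120738688, plus strand, not shown) held 2. Of 32851 promoters of this length, 72.3% held at least 1 E-box and 17.6% held 3 or more. The variant CAGGTG, searched on both strands and part of the E-boxes, occurred 1 time in each of the Siglech, Ccr9 and Klk1 promoters. It also occurred 1 time in the promoter at the second start of Irf8, and 20.2% of all promoters held it. The variant CAGCTG, held by 16.3% of all promoters, was in none of the promoters shown. Matches describe the letters of these windows only.
Siglech: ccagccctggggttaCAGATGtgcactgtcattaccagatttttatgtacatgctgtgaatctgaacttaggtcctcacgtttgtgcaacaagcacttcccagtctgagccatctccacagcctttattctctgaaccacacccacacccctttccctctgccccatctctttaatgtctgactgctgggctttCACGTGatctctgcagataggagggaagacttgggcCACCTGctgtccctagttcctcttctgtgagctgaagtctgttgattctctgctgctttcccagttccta
Ccr9: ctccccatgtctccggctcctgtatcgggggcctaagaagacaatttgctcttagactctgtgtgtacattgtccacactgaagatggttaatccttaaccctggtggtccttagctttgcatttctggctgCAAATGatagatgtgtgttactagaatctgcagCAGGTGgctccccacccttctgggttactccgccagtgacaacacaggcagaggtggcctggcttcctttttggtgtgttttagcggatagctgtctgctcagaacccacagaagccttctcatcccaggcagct
Klk1: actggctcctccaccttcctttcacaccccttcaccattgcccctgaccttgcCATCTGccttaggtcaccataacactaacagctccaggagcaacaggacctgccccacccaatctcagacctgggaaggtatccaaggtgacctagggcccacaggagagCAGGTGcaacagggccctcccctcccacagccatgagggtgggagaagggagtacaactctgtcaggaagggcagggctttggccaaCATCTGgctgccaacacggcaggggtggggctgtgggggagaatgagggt
Irf8: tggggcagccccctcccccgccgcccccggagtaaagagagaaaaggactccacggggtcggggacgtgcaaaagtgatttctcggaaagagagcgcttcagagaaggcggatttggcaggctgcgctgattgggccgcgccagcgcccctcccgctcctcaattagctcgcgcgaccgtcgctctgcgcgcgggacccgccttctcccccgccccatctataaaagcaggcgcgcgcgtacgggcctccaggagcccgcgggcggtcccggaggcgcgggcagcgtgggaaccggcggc

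The cells fell into 2 bodies by the number of these genes they held, with few cells in between. In the control library 448 cells held none of the 8 genes, 715 held 1, 105 held 2, 7 held 3, 1 held 4, 2 held 5, 6 held 6, 8 held 7 and 10 held all 8. In the Nrp1L/L library 562 held none, 618 held 1, 75 held 2, 6 held 3, none held 4 or 5, 1 held 6, 8 held 7 and 5 held all 8. Across both libraries 54 cells held 3 or more members: 13 held exactly 3, 3 held 4 or 5, and 38 held 6 or more. The upper body was also seen when every cell was thinned to 2500 UMIs, with 11, 8 and 3 control cells and 3, 6 and 1 Nrp1L/L cells holding 6, 7 and 8 members.

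**Figure D1:**
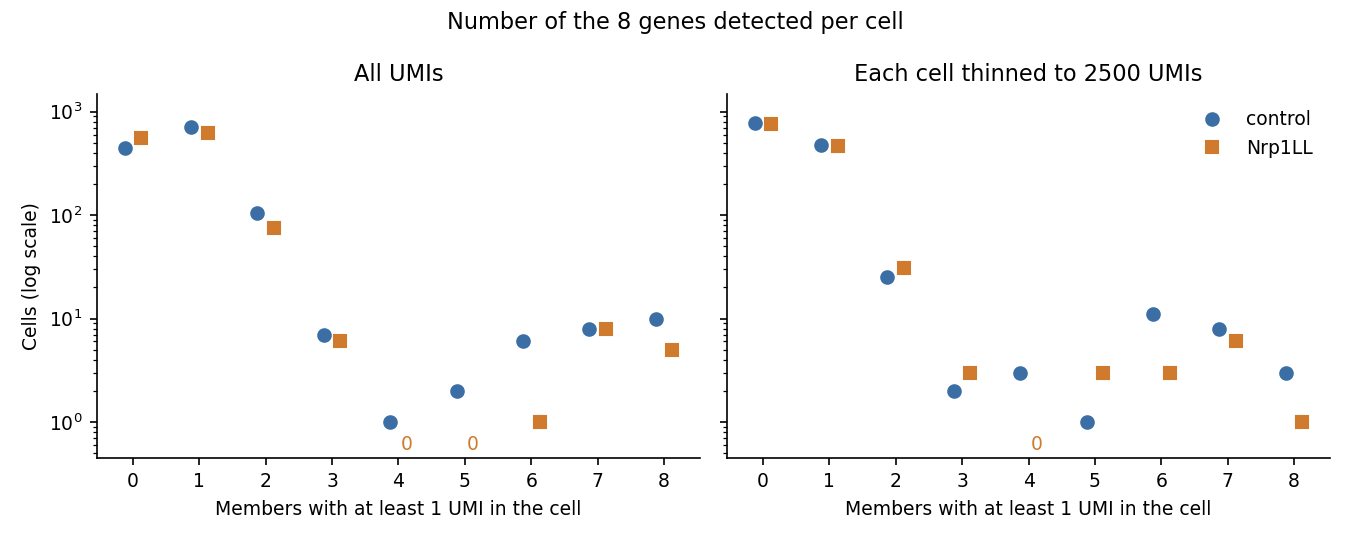
Number of cells (log scale) by the number of the 8 genes with at least 1 UMI, for the control (circles) and Nrp1L/L (squares) libraries, with all UMIs on the left and each cell thinned to 2500 UMIs on the right; a printed 0 marks an empty class. With all UMIs, 3 cells of both libraries held 4 or 5 members, between 13 cells with exactly 3 and 38 cells with 6 or more.

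Cells with 3 or more members made up 2.61% of control cells (34 of 1302, exact Clopper-Pearson interval 1.82 to 3.63%) and 1.57% of Nrp1L/L cells (20 of 1275, 0.961 to 2.41%). The difference, Nrp1L/L minus control, was -1.04 percentage points, with a Newcombe interval from -2.20 to 0.0760 that included 0. After thinning to 2500 UMIs the shares were 2.15% and 1.25%, a difference of -0.896 points (-1.95 to 0.120). Fewer such cells were thus seen in the Nrp1L/L library, by a margin within or near counting error. Cells with 6 or more members were 1.84% (24) and 1.10% (14), a difference of -0.745 points (-1.73 to 0.206). Thinned, the shares with 6 or more were 1.69% and 0.784%, a difference of -0.905 points (-1.83 to -0.0375) whose interval did not reach 0. The lymphocytes of the libraries also differed: 452 control and 766 Nrp1L/L cells met the T cell rule given further on, and 70 and 144 met that for natural killer (NK) cells. Among cells meeting neither rule, those with 3 or more members were 4.10% (32 of 780, 2.82 to 5.74%) and 4.66% (17 of 365, 2.74 to 7.35%), a difference of 0.555 points (-1.82 to 3.48). The sign of the difference turned with the denominator, and with 1 library each a difference between genotypes and one between libraries cannot be told apart. Of the barcodes left out as likely doublets, 2 in each library held 6 or more members.

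Co-occurrence set 6 genes found together apart from 2 that were also widespread. The 6 were Siglech, a sialic acid-binding receptor of pDCs, Ccr9, a chemokine receptor, Klk1, a kallikrein protease, Cox6a2, a subunit of cytochrome c oxidase, Ly6d, a surface protein of pDCs and B-lineage cells, and Lefty1, a secreted inhibitor of Nodal signalling. Of the control cells with one of these 6, a median of 63.8% (43.2 to 89.3% over 30 ordered pairs) also held a given other one, and in the Nrp1L/L library the median was 62.9% (34.5 to 92.9%). The transcription factor genes Irf8 and Tcf4 were found in most of these cells but also elsewhere. Of the cells with one of the 6 genes, 82.4 to 96.9% held Irf8 in the control and 80.8 to 100% in the Nrp1L/L library, and 59.5 to 78.6% and 51.7 to 92.9% held Tcf4. In the other direction the shares were small for Irf8: of the 804 control cells with Irf8, 2.86 to 3.98% held a given one of the 6, and of the 683 Nrp1L/L cells 1.90 to 3.81%. Of the 143 and 86 cells with Tcf4, 11.2 to 16.1% and 11.6 to 17.4% held a given one. Among the 6 genes, the correlation of log counts per 10000 had a median r of 0.80 over 1302 control cells and 0.70 over 1275 Nrp1L/L cells, which share library and sequencing run and hold mostly zeros.

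**Figure D2:**
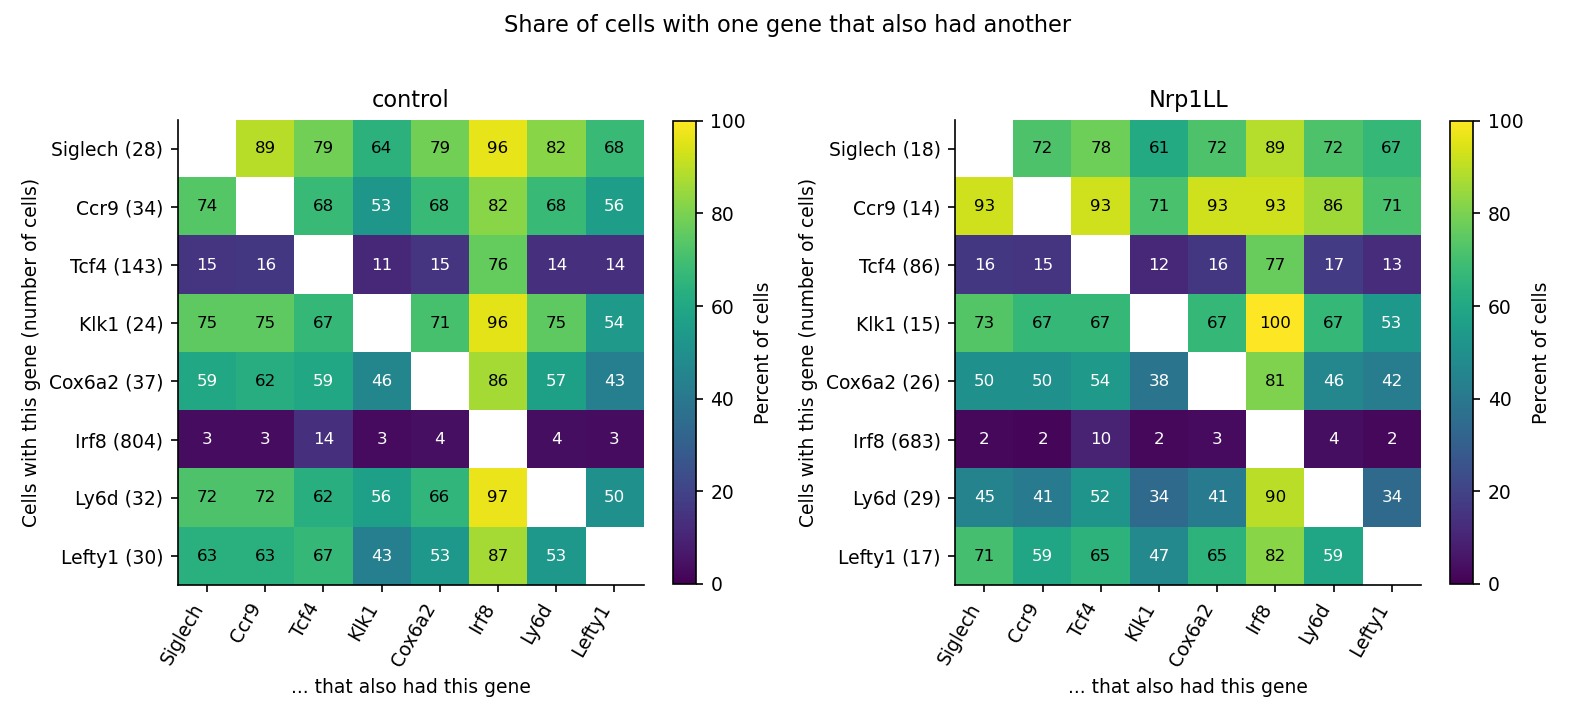
Percent of the cells with the gene named on the rows (number of cells in brackets) that also held the gene named on the columns, for each library. The Irf8 column is high for the 6 genes, from 80.8 to 100% in the Nrp1L/L library, while the Irf8 row is low, from 1.90 to 3.81% for the same 6 genes there.

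The UMIs of the 6 genes lay mostly in cells with 3 or more members, which these genes themselves define, so the shares are a description. For Siglech 258 of 260 control UMIs (99.2%) and 147 of 150 Nrp1L/L UMIs (98.0%) were in them. For Klk1 the shares were 98.7% and 98.4%, and for Ly6d 97.3% and 95.5%. Outside these cells, neither Siglech nor Klk1 had more than 1 UMI in any cell. For Ccr9 the shares were 87.1% and 100%, for Cox6a2 89.0% and 89.3%, and for Lefty1 86.6% and 66.2%. Single cells made up much of the remainder, since 1 control cell held 16 Ccr9 UMIs and 1 Nrp1L/L cell held 11 Lefty1 UMIs. The transcription factors were spread more widely, with 37.7% and 44.6% of Tcf4 UMIs and 15.1% and 12.9% of Irf8 UMIs in cells with 3 or more members. Most cells with a single member held Irf8 (667 of 715 and 591 of 618), and most with 2 held Tcf4 and Irf8 (79 of 105 and 48 of 75).

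In cells with 6 or more members, some genes were near constant and others varied. Siglech was found in all 24 control cells (2 to 22 UMIs, median 11) and all 14 Nrp1L/L cells (2 to 22, median 10). Irf8 was found in all 24 (13 to 43 UMIs, median 30) and all 14 (13 to 65, median 38). Ccr9 was found in 24 of 24 cells (1 to 23 UMIs, median 7.5) and 13 of 14 (0 to 26, median 8.5). These 3 were each missing from at most 1 of the 38 cells. Ly6d was found in 23 of 24 cells (0 to 71 UMIs, median 21.5) and 13 of 14 (0 to 72, median 23.5). Klk1 was found in 18 of 24 cells (0 to 78 UMIs, median 10) and 11 of 14 (0 to 79, median 3.5). Lefty1 was found in 17 of 24 cells (0 to 7 UMIs, median 3.5) and 11 of 14 (0 to 16, median 2.5). Klk1 and Lefty1 were thus the members most often missing. Cox6a2 was found in 22 of 24 cells (0 to 21 UMIs, median 5) and 13 of 14 (0 to 26, median 5), and Tcf4 in 20 of 24 (0 to 11, median 4) and 13 of 14 (0 to 14, median 5.5). Together the 8 genes took 0.793 to 2.85% of a control cell's UMIs (median 1.74%) and 0.15 to 2.52% of an Nrp1L/L cell's (median 1.44%).

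The 13 cells with exactly 3 members looked different. All held Tcf4, 12 held Irf8, and Siglech was seen as 1 UMI in 1 of them. In the control library 6 of the 7 met the monocyte rule, and 5 held 47 to 216 UMIs of C1qa, a complement gene of macrophages. Those 5 had 11461 to 28596 UMIs each, above the library median of 8056.5, and 1 to 7 UMIs of each member they held. A further control cell, with 52739 UMIs, held 562 UMIs of Jchain, the joining chain of secreted antibodies, 15 of Cd79b, a chain of the B cell receptor complex, and 22 of Ly6d. In the Nrp1L/L library 3 of the 6 held Tcf4, Irf8 and Ly6d with 14, 22 and 28 UMIs of Cd79b, and their Ly6d counts were 16, 100 and 51. No cell with 6 or more members held 5 or more C1qa UMIs or any Jchain. A count of 3 members therefore also took in deep cells with C1qa and cells with many Cd79b UMIs.

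**Figure D3:**
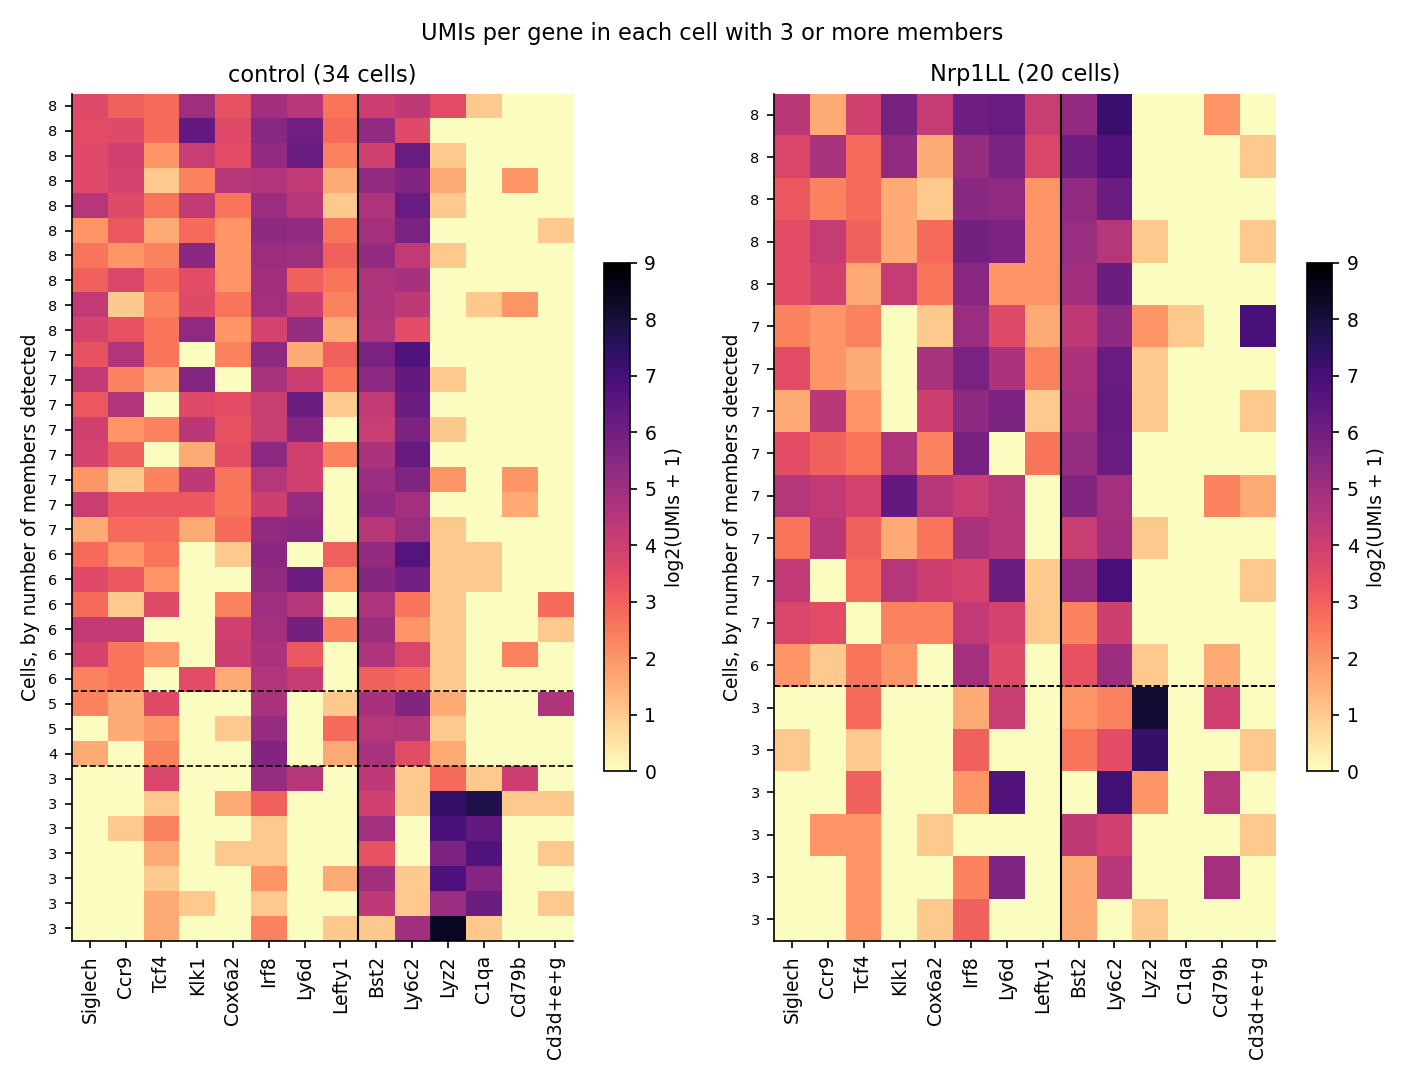
UMIs, as log2(UMIs + 1), of the 8 genes (left of the black line) and of marker genes (right of it) in each of the 34 control and 20 Nrp1L/L cells with 3 or more members, one cell per row, ordered by members detected, with dashed lines at 6 and 4 members. All cells with 6 or more members hold Bst2 and Ly6c2, while 5 control cells with exactly 3 members hold 47 to 216 C1qa UMIs, and 1 Nrp1L/L cell with 7 members has 122 UMIs of Cd3d, Cd3e and Cd3g.

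Markers of other cell types were read in the cells with 6 or more members. All listed genes of neutrophils, of basophils or mast cells and of melanoma were at 0 in both libraries. Of the B cell genes, Cd79a and Ms4a1 were at 0, while Cd79b had 15 UMIs in 5 of 24 control cells and 9 UMIs in 3 of 14 Nrp1L/L cells, at 2 to 4 in a cell. Of 12 genes of conventional dendritic cells (cDCs), 6 were seen in each library, with 128 UMIs in 16 of 24 cells (summed, 0 to 32.4 UMIs per 10000) and 41 UMIs in 12 of 14 cells (0 to 15.3), and Xcr1, Itgae, Zbtb46 and Batf3 were at 0 in both. The summed T cell list (7 of 8 genes seen in the control, 8 of 8 in the Nrp1L/L library) ranged from 0 to 35.2 and from 1.27 to 58.2 UMIs per 10000, and it includes Cd4 and Cd8b1, which pDCs can also express. The summed monocyte and macrophage list ranged from 7.03 to 128 and from 11.9 to 203 per 10000, with Csf1r and Adgre1 at 0, and it includes Ly6c2, which pDCs also express. Of the 24 control cells 17 met no class rule, 5 met the cDC rule, 1 the monocyte rule and 1 the T cell rule. Of the 14 Nrp1L/L cells 9 met none, 4 the cDC rule and 2 the T cell rule, 1 of them both. One Nrp1L/L cell, with 39335 UMIs and 122 of the CD3 genes, held 29.0% of all UMIs of these 14 cells.

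Other genes known from pDCs, which the choice of cells did not use directly, were higher in the same cells. At least 1.5-fold higher in cells with 3 or more members than in cells with fewer were 29 of 30 measured genes of this list in the control, where 26% of all 10581 measured genes were. In the Nrp1L/L library 28 of 28 were, where 24.9% of 9884 were. Of these genes 7 (control) and 6 (Nrp1L/L) reached the minimum of 20 UMIs only with the cells in which they were high, so that their difference was fixed by the filter and the counts are a description. Of those with at least 20 UMIs in the other cells alone, 22 of 23 and 22 of 22 were at least 1.5-fold higher. Bst2, the antiviral surface protein tetherin, had 2496 and 2439 UMIs per 1000000 (counts of a gene scaled to that total, CPM) in the cells with 3 or more members and 549 and 566 in the others. Cd300c, an activating receptor, had 117 of its 131 control UMIs and 47 of its 49 Nrp1L/L UMIs in cells with 3 or more members. Spib, an Ets factor of pDCs and B cells, had 114 CPM against 3.03 in the control and 171 against 1.16 in the Nrp1L/L library. The values of these 3 genes were higher in both libraries. Tlr7, the endosomal receptor for single-stranded RNA, was seen in 8 of 34 and 5 of 20 cells and was 5.21-fold and 12.9-fold higher. Tlr9, the receptor for CpG DNA, had no UMI in these cells and 4 and 3 UMIs in all others, which is too few to compare. Irf7, which drives interferon genes, was below the limit in the control (522 against 400 CPM, 1.3-fold) and above it in the Nrp1L/L library (909 against 555 CPM, 1.64-fold).

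Among 20 E protein, ID and dendritic cell transcription factors, 6 of 20 measured were at least 1.5-fold higher and 6 lower in control cells with 3 or more members. In the Nrp1L/L library 9 and 5 of 19 were, beside 26% and 24.9% of all genes higher in the control and Nrp1L/L libraries. With 6 or more members the counts were 7 and 6 in the control and 6 and 6 in the Nrp1L/L library. There 25.7% and 25.9% of all genes were higher. The share of all genes lower is not given here. Id2, the antagonist of E proteins, was found in 1 of 24 and 4 of 14 cells with 6 or more members, against 977 of 1268 and 944 of 1255 cells with fewer than 3. Bcl11a, a factor of pDCs and B cells, had 165 against 3.58 CPM in the control and 241 against 2.45 in the Nrp1L/L library. The E protein gene Tcf12 was 5.18-fold and 7.60-fold higher. Nfil3, a repressor needed for NK cells, had 25.7 against 128 CPM in the control and 2 UMIs in the cells with 3 or more members of the Nrp1L/L library. The list as a whole was mixed in direction, and the genes named from it differed one by one. Of 22 genes of the secretory pathway, 17 and 15 were at least 1.5-fold higher and none lower. Among them were Xbp1, a factor of secretory cells (2.78-fold and 4.31-fold), and Hsp90b1, a chaperone of the endoplasmic reticulum that serves TLRs (2.67-fold and 3.78-fold). Mzb1, a chaperone of antibody-secreting cells and pDCs, had 289 control UMIs in cells with 3 or more members and 14 in all others, and 162 against 1 in the Nrp1L/L library. It was found in 13 of 24 and 8 of 14 cells with 6 or more members. The cells with 3 or more members also took in 1 control cell with 562 UMIs of Jchain and 1 Nrp1L/L cell with 307. Their part in the UMIs of these secretory genes is not given here.

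Of 14 measured genes of nucleic acid sensing, 6 and 9 were at least 1.5-fold higher and 2 and 1 lower, beside 26% and 24.9% of all genes higher. Unc93b1, which carries TLRs to endosomes, was 2.53-fold and 5.92-fold higher, and the endosomal nuclease gene Pld4 5.07-fold and 11.6-fold. Of 15 type I and III interferon genes none had a UMI in the 34 or the 20 cells, which allows shares of cells with a UMI of up to 8.82% and 15%. No interferon transcript was thus detectable in these cells at this depth. The control library had 46 UMIs of interferon genes in 5 other cells.

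The 20 genes most like the 8 by correlation over cells included 11 of the 35 genes of the pDC list. They were ranked by the lower r of the libraries among 9954 genes with at least 50 UMIs. Cd300c came first (r = 0.81 over 1302 control cells and 0.79 over 1275 Nrp1L/L cells). It was followed by Pgam2, a phosphoglycerate mutase (0.71 and 0.63), Upb1, a beta-ureidopropionase (0.68 and 0.62), Paqr5, a progestin receptor (0.68 and 0.60), and Smim5 (0.74 and 0.60). The others in order were Fcrla, Tsc22d1, Rnase6, Mzb1, Klk1b27, Pltp, Ccdc162, Atp2a1, Bcl11a, Spib, Sh3bgr, Nucb2, Klra17, Pir and Rpgrip1, the last with a lower r of 0.42. These genes were picked by their correlation with the 8, which define the cells with 3 or more members. High shares of their UMIs in those cells follow from this choice and are a description. Both Pgam2 and Klk1b27 reached the minimum of 50 UMIs only with those cells. Of Pgam2, 98.8% of 82 control UMIs and all 31 Nrp1L/L UMIs lay in cells with 3 or more members. Klk1b27, a kallikrein gene closely related to Klk1, had 96.8% and 96.9% there, and reads of such near-identical genes may have been split or lost in counting. Pgam2, Atp2a1, a calcium pump, and Sh3bgr are otherwise known from muscle, as is Cox6a2.

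Which of the 8 genes other leukocytes share was read in 4 classes set by UMI counts. These were cDCs (Cd209a, Flt3 and Xcr1 summing to 2 or more), monocytes (Lyz2 of 10 or more), T cells (Cd3d, Cd3e and Cd3g summing to 2 or more) and NK cells, as a further class that should lack most of the genes. They held 90, 577, 452 and 70 control cells and 35, 214, 766 and 144 Nrp1L/L cells. The rules overlapped, with 23 of the 90 and 21 of the 35 cDCs also meeting the monocyte rule, and 7 and 5 of the cDCs holding 3 or more members. With all of these cells, Siglech was seen in 6.67% and 17.1% of cDCs, 0.173% and 0.467% of monocytes, and 0.885% and 0.522% of T cells. Across the 6 genes, 3.33 to 7.78% of control and 5.71 to 17.1% of Nrp1L/L cDCs held a given one. The values that follow are for cells that met 1 rule only and held fewer than 3 members. This left 51 cDCs, 532 monocytes, 426 T cells and 67 NK cells in the control, with median depths of 10809, 8522, 7415 and 5185 UMIs. In the Nrp1L/L library it left 8, 182, 750 and 143, with median depths of 11299, 8230.5, 5100.5 and 4103 UMIs.

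Irf8 was shared with all 4 classes. In cDCs it was found in 68.6% of 51 control cells (54.1 to 80.9%) and in 7 of 8 Nrp1L/L cells. In monocytes it was found in 64.7% (60.4 to 68.7%) and 78.6% (71.9 to 84.3%), and in T cells in 46.9% (42.1 to 51.8%) and 36.1% (32.7 to 39.7%). NK cells, which also use IRF8, held it in 80.6% and 86.7%, so they are no background class for this gene. After thinning, the shares in cDCs, monocytes, T cells and NK cells were 47.1%, 38.0%, 24.9% and 70.1% in the control and 75%, 54.9%, 20.8% and 79.7% in the Nrp1L/L library. Among cDCs outside the T cell and NK rules with fewer than 3 members, the control cells with Xcr1, the receptor of type 1 cDCs, all held Irf8 (16 of 16, 2449 CPM, exact Poisson interval 2242 to 2669). Those with 2 or more UMIs of Cd209a and no Xcr1 held it in 52.1% of 48 control cells, at 244 CPM (204 to 290), and in 77.3% of 22 Nrp1L/L cells, at 813 CPM (695 to 946). In the control the intervals of the 2 cDC subsets did not overlap in the level of Irf8.

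Between the libraries, the level of Irf8 differed in direction by class, lower in Nrp1L/L T cells and higher in the other classes. In monocytes it was 285 CPM (control) and 516 CPM (Nrp1L/L), a log2 ratio of 0.86 (exact conditional interval 0.73 to 0.98). In cDCs it was 1059 CPM in 51 control cells and 1874 CPM in 8 Nrp1L/L cells, a log2 ratio of 0.82 (0.57 to 1.07). In T cells it was 298 and 190 CPM, a log2 ratio of -0.65 (-0.77 to -0.53), and in NK cells 1123 and 1387 CPM, a log2 ratio of 0.30 (0.15 to 0.46). Among the T cells, those with 2 or more UMIs of Cd8a and Cd8b1 had 298 and 223 CPM, a log2 ratio of -0.42 (-0.56 to -0.27). Those with Cd4 and no Cd8 genes had 130 and 124 CPM, a log2 ratio of -0.08 (-0.61 to 0.46). Such ratios could not be set against a spread between mice.

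Tcf4 was shared less widely and at low counts. It was found in 25.5% of control cDCs (14.3 to 39.6%) and 1 of 8 Nrp1L/L cDCs, in 9.40% (7.06 to 12.2%) and 14.8% (10.01 to 20.8%) of monocytes, and in 3.99% and 1.60% of T cells. NK cells held it in 10.4% (4.30 to 20.3%) and 6.29% (2.92 to 11.6%), so the share in control monocytes and in T cells was no higher than in NK cells. The next values are for control cDCs outside the T cell and NK rules with fewer than 3 members, which could also meet the monocyte rule. None of the 16 with Xcr1 held Tcf4 (0 to 20.6%), while 33.3% of the 48 with Cd209a and no Xcr1 did (20.4 to 48.4%). The intervals overlapped. In monocytes its level was 16.8 and 31.7 CPM, a log2 ratio of 0.92 (0.39 to 1.44). After thinning, the shares in these classes were 0 to 5.97% in both libraries.

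The other 6 genes were rare in these classes. In control cDCs, Siglech, Ccr9, Klk1, Ly6d and Lefty1 were seen in 0 of 51 cells, which allows shares of up to 5.88%, and Cox6a2 was seen in 1. The shares in monocytes ran from 0 to 1.69% in the control and from 0 to 1.65% in the Nrp1L/L library, and in T cells from 0.469 to 1.17% and from 0 to 0.933%. In NK cells none of the 6 was seen in 67 control cells, which allows up to 4.48%, and the shares in 143 Nrp1L/L cells were 0 to 1.40%. With so few control NK cells, their share of 0 could not have told these low shares from background. Siglech had no UMI in 532 control and 182 Nrp1L/L monocytes, which allows up to 0.564% and 1.65%, and it had 1 UMI in each of 2 control and 2 Nrp1L/L T cells. Ccr9, which also guides T cells to the gut, was found in 5 of 426 control T cells with 14 UMIs in all and up to 6 in a cell, and in 0 of 750 Nrp1L/L T cells, which allows up to 0.4%. Single cells stood out by their counts: 1 control T cell held 8 Cox6a2 UMIs and 1 Nrp1L/L cDC 11 Lefty1 UMIs. Outside the cells that met 1 rule only, 1 control cell with Xcr1, which met both the cDC and the monocyte rule, held 16 Ccr9 UMIs.

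**Figure D4:**
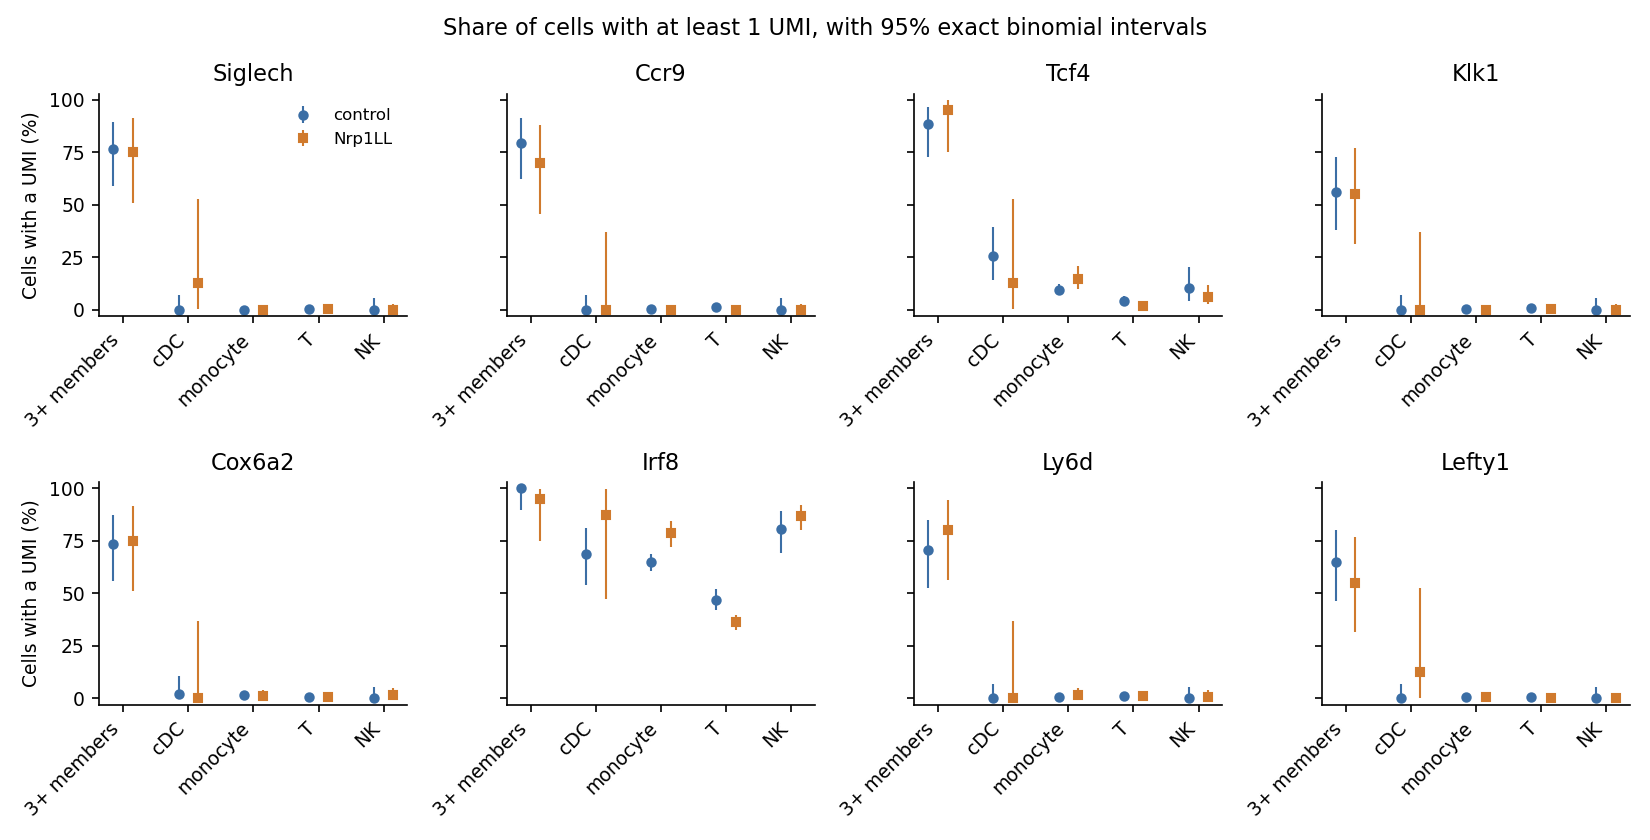
Percent of cells with at least 1 UMI of each of the 8 genes in cells with 3 or more members and in cDCs, monocytes, T cells and NK cells that met 1 rule only, for the control (circles) and Nrp1L/L (squares) libraries; bars are 95% exact binomial intervals. Irf8 is found in every class and Tcf4 at low shares, and the other 6 genes lie at 0 to 1.96% outside the cells they define, except in the 8 Nrp1L/L cDCs, where 1 cell is 12.5%.

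Between the genotypes, the direction of the 8 genes depended on which cells were summed. Over cells with 3 or more members all 8 were higher in the Nrp1L/L library, with a median log2 ratio of 0.37, and Ly6d alone passed 1.5-fold (2137 and 3279 CPM, log2 ratio 0.62, 0.46 to 0.77). Of all 3602 genes with at least 20 UMIs there, 19.8% were at least 1.5-fold higher and 24.9% lower, with a median of -0.06. Over cells with 6 or more members all 8 were lower, with a median of -0.32, and Siglech alone passed 1.5-fold (1653 and 1075 CPM, log2 ratio -0.62, -0.93 to -0.32), where 22.2% of 2194 genes were higher and 21% lower. The first sum includes the 5 deep control cells with C1qa and 3 Nrp1L/L cells with many Cd79b UMIs. Nrp1L/L cells with exactly 3 members held 167 of its 613 Nrp1L/L UMIs of Ly6d. With cells meeting the T cell or monocyte rule left out of the first sum, none of the 8 passed 1.5-fold (median 0.16). There 20.3% of 2412 genes were higher and 24.0% lower. The second sum includes the Nrp1L/L cell with 122 CD3 UMIs. With cells meeting the T cell or monocyte rule left out of those with 6 or more members, 22 control and 12 Nrp1L/L cells remained. The median log2 ratio was then 0.02, with 4 genes above and 4 below 0, and none of the 8 passed 1.5-fold, where 20.2% of 1740 genes were higher and 19.5% lower. No direction for the 8 genes held across these sets.

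Per cell, the libraries overlapped for each of the 8 genes in these 22 and 12 cells. Siglech ranged from 4.11 to 36.2 UMIs per 10000 in the control (median 15.8) and from 2.12 to 32.4 in the Nrp1L/L library (median 12.8). Irf8 ranged from 25.2 to 76.1 (median 53.3) and from 21.6 to 74.9 (median 54.9). Klk1 ranged from 0 to 97.3 (median 17.8) and from 0 to 54.5 (median 9.18). For these genes the range within a library was wider than the distance between the medians. Tcf4 ranged from 0 to 14.5 (median 6.28) and from 0 to 13.4 (median 7.30), and Ly6d from 0 to 106 (median 50.7) and from 0 to 113 (median 41.8). The medians of Ccr9 were 13.6 and 14.3, of Cox6a2 9.03 and 7.87, and of Lefty1 5.16 and 3.77. Nrp1 itself had 9 UMIs in 4 of 24 control cells and 13 UMIs in 6 of 14 Nrp1L/L cells with 6 or more members.

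**Figure D5:**
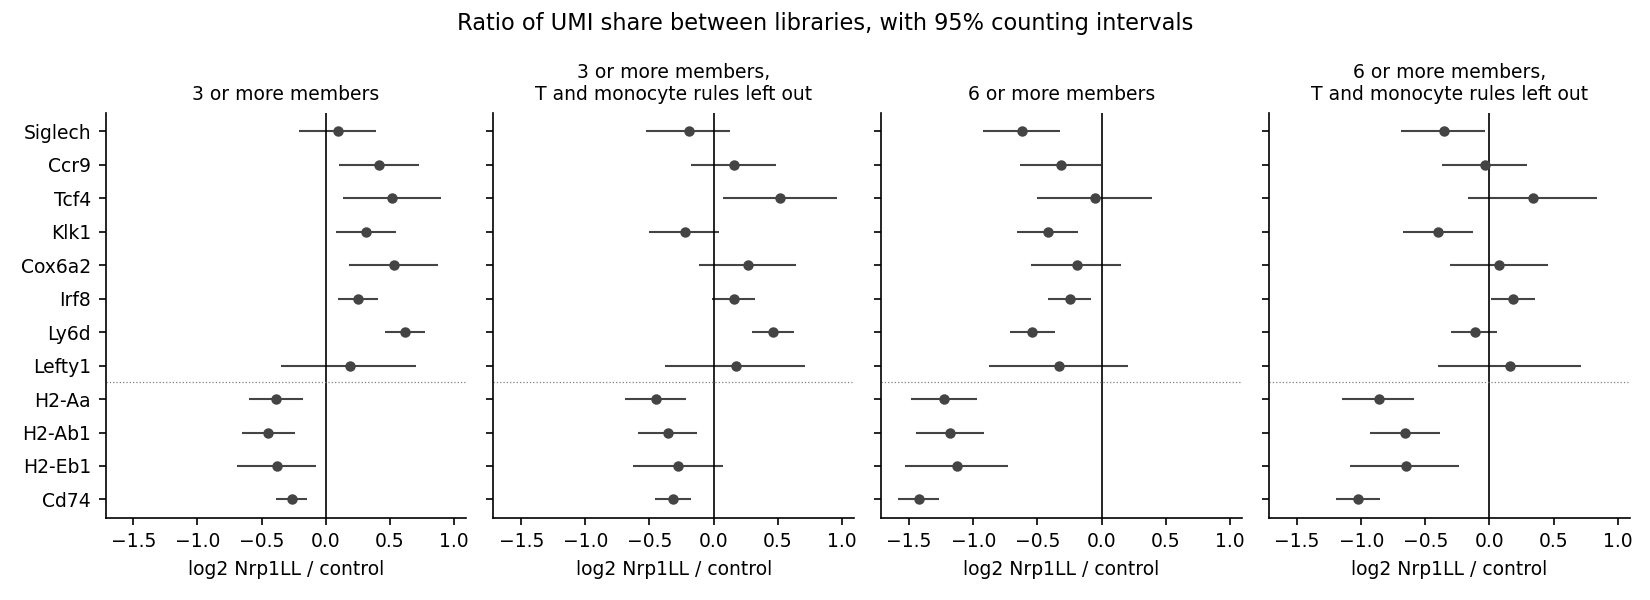
Log2 ratio of the share of UMIs, Nrp1L/L over control, for the 8 genes and, under the dotted line, 4 genes of MHC class II presentation, within 4 choices of cells; points are summed counts and bars 95% counting intervals. The 8 genes lie above 0 with 3 or more members (median 0.37), below 0 with 6 or more (median -0.32) and around 0 once cells meeting the T cell or monocyte rule are left out of the latter (median 0.02), while H2-Aa, H2-Ab1, H2-Eb1 and Cd74 lie below 0 in all 4.

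Genes of MHC class II, which presents antigen to CD4 T cells, were lower in the Nrp1L/L cells with 6 or more members. All 7 measured genes were at least 1.5-fold lower there (median log2 ratio -1.12), against 21% of all genes. With cells meeting the T cell or monocyte rule left out, all 7 were below 0 and 4 passed 1.5-fold lower (median -0.65, against 19.5% of all genes). With every cell meeting a class rule left out (17 and 9 cells), 5 of 7 were below 0 and 2 passed (median -0.40, against 18.3%). In cells with 3 or more members 5 of 9 were below 0, none passed 1.5-fold lower and 2 passed higher (median -0.11). Cd74, the invariant chain, had a median of 57.6 UMIs per 10000 in the 22 control cells (0 to 212) and 16.0 in the 12 Nrp1L/L cells (1.02 to 178), so the groups overlapped. Its log2 ratio was -0.26 (-0.39 to -0.14) with 3 or more members, -1.43 (-1.59 to -1.27) with 6 or more and -1.03 (-1.20 to -0.86) in the 22 and 12 cells. H2-Aa, a class II alpha chain, had log2 ratios of -0.38, -1.23 and -0.86 in the same 3 sets. Markers of cDCs moved with these genes: the 2 measured cDC markers were both lower in the 22 and 12 cells, with a median of -1.68, and their part in the result was not tested.

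The direction of interferon-stimulated genes depended on the cells and depth used, and their median was -0.066 with 4 or more members and -0.13 after thinning. With 3 or more members, 12 of 20 measured type I interferon-stimulated genes were at least 1.5-fold higher and 1 lower in the Nrp1L/L library (median log2 ratio 0.73), against 19.8% and 24.9% of all genes. T cell markers moved with them there (7 of 8 higher, median 1.87). With 6 or more members 3 of 15 were higher and 3 lower (median 0.08), against 22.2% and 21% of all genes, and 1 interval lay above and 6 below 0. In the 22 and 12 cells 6 of 13 were higher and 2 lower (median 0.41), where the T cell markers had a median of 0.11. In the 17 and 9 cells that met no class rule, 5 of 9 were higher and none lower (median 1.02). There 21.0% and 18.3% of all genes were. With 3 or more members and the T cell and monocyte rules left out, 7 of 13 were higher and 2 lower (median 0.61). The T cell markers there had a median of 0.28, and 20.3% and 24.0% of all genes were higher and lower. Isg15, a ubiquitin-like antiviral protein, ranged from 0 to 36.6 UMIs per 10000 in the 22 control cells (median 0) and from 0 to 44.96 in the 12 Nrp1L/L cells (median 5.27). Its log2 ratio there was 1.03 (0.54 to 1.53). Unc93b1 ranged from 0 to 30.0 (median 8.10) and from 0 to 21.1 (median 12.5), with a log2 ratio of 0.54 (0.16 to 0.92). For both genes the cells of the libraries overlapped. Interferon-gamma induced genes had medians of 0.74 (3 or more members), 0.05 (6 or more) and 0.50 (the 22 and 12 cells). In the same order, costimulation, tolerance and trafficking genes had 0.61, -0.35 and -0.30.

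The genes farthest from 0 between the genotypes in cells with 3 or more members held none of the pDC list. The 10 higher in the Nrp1L/L library were Xcl1, Ankrd55, H2-Ob, Ifitm1, Gzmb, Nkg7, Sh2d2a, Tnfrsf9, Senp7 and Chil3. For each of these 10 genes, most Nrp1L/L UMIs came from 1 cell. Of Gzmb, granzyme B of cytotoxic cells, 119 of 123 UMIs came from 1 cell, and of the chemokine Xcl1 69 of 72. The largest cell held all 37 UMIs of Ankrd55, all 39 of Chil3 and, at the least, 20 of 28 of Sh2d2a. The 10 lower were Ccl7, C1qa, C1qb, C1qc, Ccl12, Ccl8, Pf4, Cxcl2, Spp1 and Ccl2, which are known from macrophages. C1qa had 524 control UMIs in 11 cells and 1 Nrp1L/L UMI. The only cells with 5 or more C1qa UMIs were 5 control cells with exactly 3 members, at 47 to 216 each. Of the 10 lower genes, only Ccl2 was measured in cells with 6 or more members (log2 ratio -1.49).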

How the data were processed

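The deposited files gave, for each library, whole-number UMI counts per gene and cell barcode. The authors made these counts with Cell Ranger 1.3 on mm10, per the submitters' processing notes. Doublets were scored with Scrublet in scanpy 1.11.5 (expected rate 2%). Its own threshold marked 8 control barcodes, which were left out. It marked 3 of 1301 Nrp1L/L barcodes, under 0.5%, so the 26 highest scores (2%) were left out instead. A gene was counted as present with at least 1 UMI, and cells were thinned to 2500 UMIs where stated. NK cells were set by Ncr1 and Klrb1c summing to 2 or more, with no UMI of Cd3d, Cd3e or Cd3g. UMIs were summed over cells and compared as shares of all UMIs, for genes with at least 20 UMIs and with 1.5-fold as the limit. A side with 0 counts stood at 3 counts. Where no cell held a gene, the share said to be allowed is 3 divided by the number of cells. That is lower than the exact Clopper-Pearson limit (5.88% against 6.98% for 0 of 51 cells). Intervals were exact Poisson, Clopper-Pearson, Newcombe or exact conditional binomial (scipy 1.17.1). The comparison was run on simulated Poisson sums, which hold no differences between cells. It therefore does not show how the intervals hold where 1 cell gives most UMIs. Python 3.11.15, numpy 2.4.6, pandas 2.3.3 and matplotlib 3.10.9 were used. Igha, Ighm, Igkc, Trac, Trbc2 and Tasl of the lists were not analysed here, and some other marker genes are not reported here.

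The 8 genes and all lists were chosen with earlier results of these data known. The rule for other named genes took the 20 most correlated with the mean of the 8, the 10 higher and 10 lower between genotypes whose interval lay farthest from 0, and up to 5 per list with the most UMIs in cells with 3 or more members. Genes named outside it (among them Id2, Nfil3, Tcf12, Tlr7, Tlr9, Isg15, Jchain and Nrp1) were chosen after their values were seen. Alternatives were other limits on members and UMIs, all barcodes, thinning, scaling and class overlap. Cells with 6 or more members, alone or without cells meeting the T cell, monocyte or any class rule, were added after seeing the data.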

Additional observations from a re-analysis of the deposited data

How the results depend on the processing

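No paired analysis was possible because each genotype had 1 library. With a limit of 2 or more members the shares were 10.7% and 7.45%, a difference of -3.22 points (-5.45 to -1.01) whose interval did not reach 0. Most cells with exactly 2 members held Tcf4 and Irf8 (79 of 105 and 48 of 75), and these shares were not thinned to equal depth. The median log2 ratio of the 8 genes, 0.37 with 3 or more members, was -0.21 with 4 or more, -0.32 with 6 or more, 0.019 with 6 or more without the T cell and monocyte rules, -0.15 with 6 or more and no class rule, -0.0050 thinned and -0.051 as a mean over cells. That of the other pDC genes was -0.52 with 6 or more. Transcription factors gave -0.57, -0.44 and -0.55 in the 3 sets with 6 or more. Type I interferon-stimulated genes turned to -0.066 with 4 or more and to -0.13 thinned. MHC class II gave -0.95 with 4 or more, -1.12 and -0.65 with 6 or more (all cells, and without the T cell and monocyte rules) and -0.87 thinned. With 3 or more members its median of -0.11 turned to 0.15 with all barcodes kept and to 0.013 with at least 1 UMI. Costimulation genes turned to -0.25 with 4 or more, to -0.35, -0.30 and -0.25 in the sets with 6 or more and to -0.39 thinned. Genes at least 1.5-fold higher, 714 with 3 or more members, were 249 with at least 50 UMIs, 4500 with at least 1, 351 and 269 in the 2 reduced sets with 6 or more, and 137 thinned. Genes lower, 897, were 327 and 2087 by the same UMI limits, 520 with 4 or more, 461, 340 and 235 with 6 or more, 172 thinned and 580 without the T cell and monocyte rules. Beyond the fewer or more cells and genes each setting holds, the cause was not tested. With all barcodes kept, Siglech was seen in 0.343% and 0.917% of monocytes, from 0.173% and 0.467%, and Ccr9 and Klk1 in 0.459% of Nrp1L/L monocytes, from 0. Few cells, 1 library per genotype and unequal depth limit all values; shares outside the 54 cells rest on few cells.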
